A study of Mus musculus with 9 samples.

Results

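The genes described here encode 10 regulators of the actin cytoskeleton of leukocytes: Coro1a, Cttn, Hcls1, Was, Wipf1, Arpc1b, Fmnl1, Lcp1, Lsp1 and Vasp. They were chosen by name, with their response to doxycycline in these libraries already known, and all 10 were found among the 27179 gene entries of each file. RNA was sequenced from AML246, a p53-/- acute myeloid leukaemia line from C57BL/6 mice in which an shRNA is directed at Spi1, the gene for PU.1, a transcription factor of myeloid cells. Clones 1, 2 and 4 of this 1 line were each grown from a single cell in medium with IL3, so every library shares the p53 loss and the hairpin construct. Washed cells had 14 days of doxycycline (Dox) followed by 14 days without it and were sorted as GFP-high; Dox cells had 14 days of it and were sorted as GFP-off; untreated cells had none and were sorted as GFP-high. Each condition has 1 library per clone, 9 in all.

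Actin filaments grow in branched networks when the Arp2/3 complex, of which Arpc1b is a subunit, is switched on by a nucleation-promoting factor such as the Wiskott-Aldrich syndrome protein (Was), which is held stable by its partner WIP (Wipf1). Cortactin (Cttn) and its relative in blood cells, HS1 (Hcls1), bind the complex and stabilise the branches, while coronins such as coronin 1A (Coro1a) act in filament turnover. Formins (Fmnl1) and Vasp elongate unbranched filaments, and L-plastin (Lcp1) bundles them. Blood cells use these proteins for migration, adhesion and phagocytosis.

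Library totals ran from 7408118 to 9803258 counts. Spi1, the gene the hairpin is directed against, stood at 197, 191 and 156 CPM (reads of a gene relative to library size, scaled by the trimmed mean of M-values, TMM) in Dox clones 1, 2 and 4, against 48.1, 46.6 and 23.7 CPM in the untreated clones. Untreated clone 1 stood apart, with 22.0% of its counts on 1 entry without a symbol against 0.153% to 1.64% in the other 8 libraries, and its scaling factor was 0.737 against 0.916 to 1.18. Of the marker lists, neutrophil genes had a summed level of 543 to 2231 CPM in Dox and 33.1 to 112 CPM in untreated cells, with reads for 10 of 10 genes in both. Most of the Dox sum was S100a9, Ngp and S100a8, at means of 635, 294 and 222 CPM. Of 8 tested genes 6 were called higher and 0 lower (6.57% and 4.35% of all tested genes). Ltf (10.4 CPM in Dox and 4.33 CPM in untreated cells) and Camp (6.25 and 5.88 CPM) were not called. Mmp8 (0.544 and 0.633 CPM) and Mmp9 (0.229 and 0.205 CPM) were too low to be tested. Megakaryocyte and platelet genes summed to 603 to 835 CPM in Dox and 117 to 291 CPM in untreated cells, with Pf4 and Treml1 at 0 in both. Eosinophil genes summed to 3386 to 4929 CPM in Dox and 8390 to 12441 CPM in untreated cells, most of it Epx. In that list 2 genes, Siglecf and Il5ra, were called higher in Dox, at means of 27.5 and 7.27 CPM. Both were near the floor in untreated cells, at 0.719 and 0.739 CPM. Mast cell and basophil genes summed to 727 to 2746 CPM in Dox and 2768 to 3537 CPM in untreated cells, with Fcer1a at 0 in both, Cma1 called lower in Dox and Kit called higher. Cma1 was near the floor in Dox, at a mean of 0.347 CPM. Erythroid genes summed to 189 to 404 CPM in Dox and 189.99 to 413 CPM in untreated cells, mostly from Tfrc, which was not called. Epor of that list was called lower (mean 1.42 CPM in Dox and 11.0 CPM in untreated cells). Monocyte genes spanned 1213 to 5373 CPM in Dox and 1787 to 2312 CPM in untreated cells, with C1qa at 0 in both. Most of that sum was Ly6c2, which was not called. Cx3cr1 was called lower (mean 0.367 CPM in Dox and 13.7 CPM in untreated cells) and Fcgr1 higher (7.46 and 0.126 CPM). Each was near the floor where it was low and passed the filter on low counts through the libraries where it is high. Both calls only describe these libraries. Lymphoid markers summed to 14.6 to 43.9 CPM in Dox and 87.0 to 168 CPM in untreated cells, with Cd4 and Ncr1 at 0 in both. That sum was mostly 1 gene, Cd3g (mean 22.3 CPM in Dox and 125 CPM in untreated cells), which was not called. Cd79b went the other way (4.14 and 2.54 CPM) and was not called either. The stromal and epithelial list summed to 940.4 to 1069 CPM in Dox and 931 to 975 CPM in untreated cells, mostly from Pecam1, and its defining genes Col1a2, Dcn, Lum and Cdh5 were at 0 in both. The part of these markers in the levels below was not tested, and in bulk RNA fewer cells of a type and less RNA per cell cannot be told apart.

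The first question was how the 10 genes stood when the hairpin was switched off. Between Dox and untreated cells, Coro1a, Hcls1, Was, Arpc1b and Lsp1 were higher and Cttn was lower past an adjusted p of 0.05 in the fit across 12004 tested genes, and all 10 members were among the genes tested. That is 5 higher and 1 lower of 10, where 6.57% of all tested genes were called higher and 4.35% lower (10.9% in all). Because the members were chosen with this comparison known, the count and the values that follow describe them and carry no test. The median log2 fold change of the members was 0.70, and that of all tested genes was 0.00. With the clone as a block Vasp also passed, giving 6 higher and 1 lower (13.0% and 11.7% of all genes, 24.8% in all). In 6 members every Dox library lay above every untreated one and in 1 below, against 20.4% and 18.5% of all genes, and 7 were higher and 2 lower in Dox within all 3 clones, against 32.1% and 31.8%. The counts rest on the clones present: 4 of the 10 passed without clone 1, 4 without clone 2, 0 without clone 4 and 4 without the untreated library of clone 1. Calls over all genes fell as well, from 1311 of 12004 to 967 of 12143, 159 of 12076, 0 of 12069 and 347 of 12309, in the same order.

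Coro1a (Entrez gene 12721, chromosome 7, 126699774 to 126704816 on GRCm38) is the coronin of white blood cells. It had 772, 831 and 791 CPM in Dox clones 1, 2 and 4, against 128, 149.9 and 137 CPM in the untreated clones. The lowest Dox library lay far above the highest untreated one, and the ratio within clones was 6.01, 5.55 and 5.76. Its log2 fold change was 2.53 ± 0.24 SE (3 libraries per group).

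Cttn (Entrez gene 13043, chromosome 7, 144435724 to 144471560), the gene for cortactin, ran the other way. It had 3.71, 10.7 and 6.01 CPM in Dox, against 60.4, 75.2 and 73.5 CPM in untreated cells. The groups did not overlap, and the Dox level was 0.0614, 0.143 and 0.0817 of the untreated level in clones 1, 2 and 4. The Dox values rest on 42, 81 and 62 reads. The log2 fold change was -3.37 ± 0.34 SE.

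Hcls1 (Entrez gene 15163, chromosome 16, 36934983 to 36963214), the cortactin relative of blood cells, had 187, 179.5 and 188 CPM in Dox, against 71.4, 72.7 and 74.9 CPM in untreated cells. Both groups were tight and did not overlap, with a log2 fold change of 1.34 ± 0.14 SE. Per kilobase of the gene length in the files, Hcls1 stood at 80.5, 26.8 and 49.9 times the level of Cttn in Dox clones 1, 2 and 4, against 1.89, 1.54 and 1.63 times in the untreated clones. Thus Hcls1 made up 96.4% to 98.8% of the summed level of both genes in Dox and 60.7% to 65.4% in untreated cells. In washed cells its share was 58.9% to 65.2%.

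**Figure D1:**
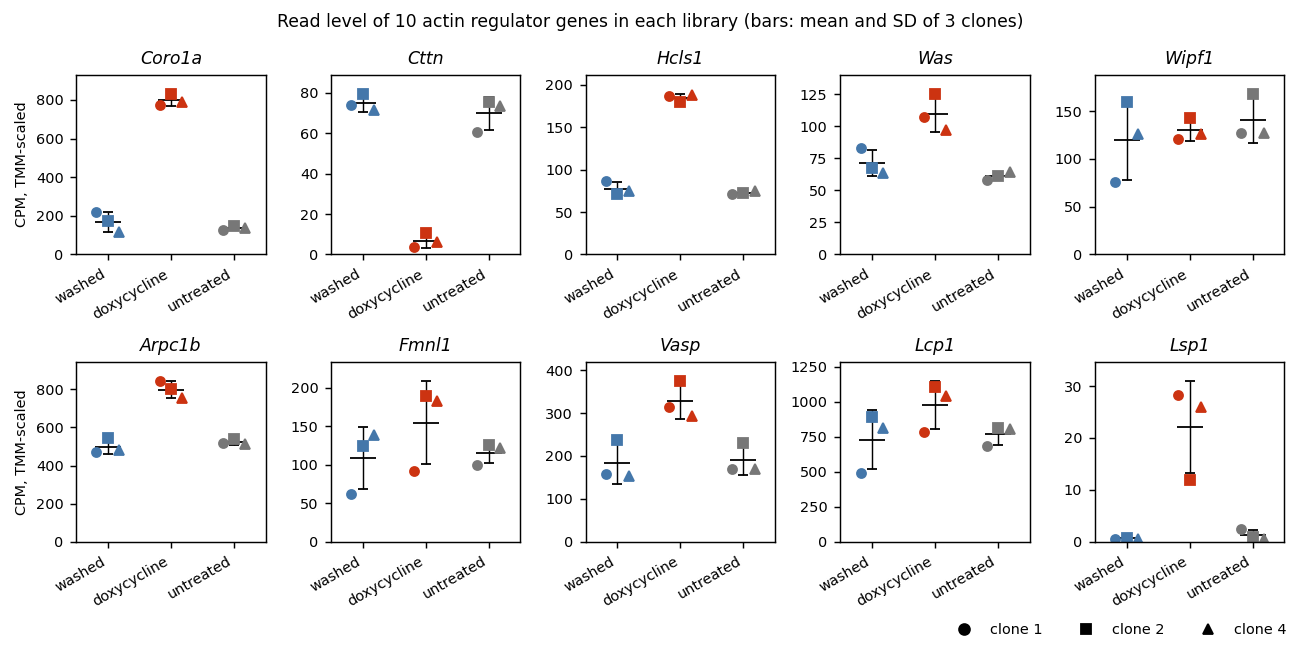
Level of each of the 10 genes in CPM scaled by trimmed mean of M-values (y axis, from 0, a scale per gene) in the washed, Dox and untreated libraries (x axis); each point is 1 clone, and the bars are the mean and SD of 3 clones. Coro1a, Hcls1, Was, Arpc1b, Vasp and Lsp1 lie above the other conditions in every Dox library, Cttn lies below them, and Wipf1, Fmnl1 and Lcp1 overlap.

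Was (Entrez gene 22376, chromosome X, 8081466 to 8090491), the activator of the Arp2/3 complex, had 107, 125 and 97.2 CPM in Dox, against 58.3, 61.5 and 64.5 CPM in untreated cells. Its groups did not overlap, and the log2 fold change was 0.84 ± 0.17 SE. Wipf1 (Entrez gene 215280, chromosome 2, 73429610 to 73529487), whose product binds the Was protein, had 121, 143 and 126 CPM in Dox, against 127, 168 and 127 CPM in untreated cells. Its groups overlapped, with a log2 fold change of -0.11 and a 95% interval from -0.70 to 0.47.

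Arpc1b (Entrez gene 11867, chromosome 5, 145114256 to 145128186), the Arp2/3 subunit that prevails in blood cells, had 841, 803 and 753 CPM in Dox, against 517, 542 and 513 CPM in untreated cells. The groups did not overlap, and the log2 fold change was 0.61 ± 0.16 SE. Its call was lost with size factors of DESeq2, with library size alone and without a filter on low counts. In the GENCODE M21 annotation 931 of its 5115 exon bases also lie in exons of Pdap1 on the opposite strand. The deposited gene length for Arpc1b is 1551 bases, and the overlap with the bases counted was not computed. Pdap1 had 134, 95.3 and 121 CPM in Dox and 133, 124 and 124 CPM in untreated cells. The part of Pdap1 reads in the Arpc1b counts was not tested. By the same annotation Coro1a shares 26 of 2783 exon bases with Bola2, Fmnl1 120 of 4886 with Gm20511, and Lcp1, of 9504, 311 with Gm15628 and 219 with Gm15629, all on the opposite strand. The deposited lengths of these 3 members are shorter too, at 1597, 3873 and 4337 bases.

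Among the genes for elongation and bundling, Vasp (Entrez gene 22323, chromosome 7, 19256929 to 19271854) had 315, 375 and 294 CPM in Dox, against 170.2, 230.5 and 169 CPM in untreated cells. The groups did not overlap, and the log2 fold change was 0.79 ± 0.23 SE. Fmnl1 (Entrez gene 57778, chromosome 11, 103171004 to 103198902), a formin of blood cells, had 92.6, 189 and 182 CPM in Dox, against 99.98, 125 and 121 CPM in untreated cells. Dox clone 1 lay below all untreated libraries and the other two Dox clones above them, with ratios of 0.926, 1.512 and 1.503 within clones. Lcp1 (Entrez gene 18826, chromosome 14, 75131105 to 75230842), the gene for L-plastin, had 782, 1106 and 1039 CPM in Dox, against 680.4, 815 and 807 CPM in untreated cells. It was higher in Dox within each of the 3 clones, by 1.15, 1.36 and 1.29 times, but the groups overlapped and the 95% interval of the log2 fold change ran from -0.24 to 0.93.

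Lsp1 (Entrez gene 16985, chromosome 7, 142458223 to 142494868) encodes a leukocyte protein that binds actin filaments. It had 28.3, 11.9 and 26.0 CPM in Dox, against 2.38, 0.882 and 0.494 CPM in untreated cells. The untreated values rest on 13, 7 and 4 reads, against 321, 90 and 268 reads in Dox, and the groups did not overlap. It had the largest log2 fold change of the 10 genes, 4.20, with a 95% interval from 2.92 to 5.48, and 4.98 without the untreated library of clone 1. With so few reads off Dox, Lsp1 passed the filter on low counts through the Dox libraries, where it is high. Its call and fold change therefore only describe these libraries.

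**Figure D2:**
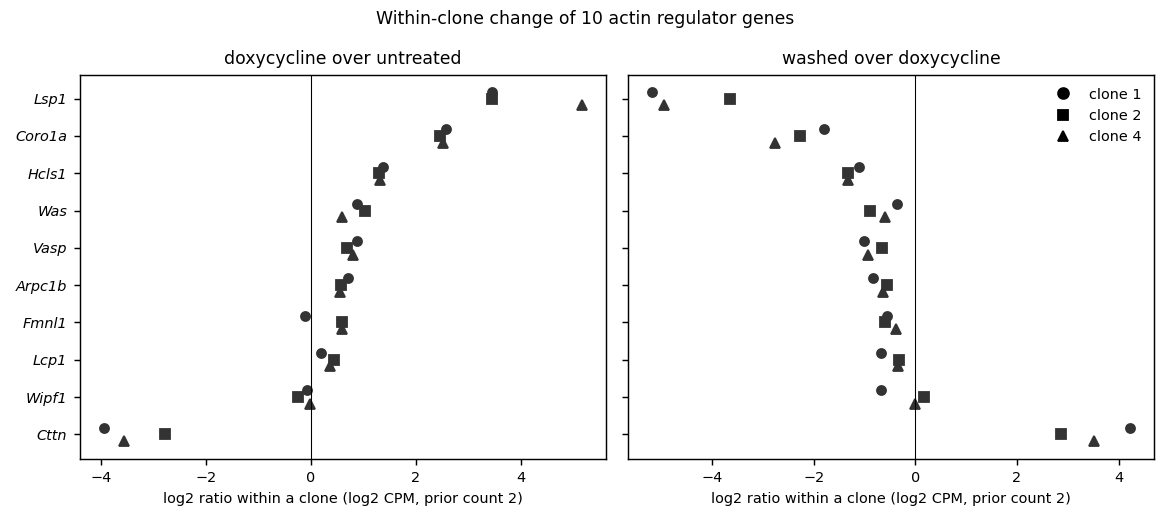
Log2 ratio of Dox over untreated (left) and washed over Dox (right) within each clone (x axes, from log2 CPM with a prior count of 2) for the 10 genes (y axis); each point is 1 clone. Coro1a and Hcls1 vary little between clones on the left, Cttn mirrors them, and Fmnl1 and Wipf1 change side between clones in 1 panel each.

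The promoters of Coro1a, Hcls1, Was and Arpc1b, called between Dox and untreated cells, are shown because they are the windows in which a PU.1 motif would lie close to the transcription start. RefSeq promoter sequences on GRCm38.p6, from 250 bases before to 50 bases after each start, were matched for 8 of the 10 members, all but Cttn and Lsp1, and comprise 12 starts. The sequences below run 5′ to 3′ on the strand of the gene. Capitals mark GAGGAA, 1 purine-rich form of the PU.1 motif, or its reverse complement TTCCTC. They are extended where the longer GAGGAAGT or its reverse complement is present. Coro1a has 2 starts (chr7:126704767-126705066, minus strand, and chr7:126704171-126704470, minus strand), and the others shown are Hcls1 (chr16:36934733-36935032, plus strand), Was (chrX:8090442-8090741, minus strand), Arpc1b (chr5:145114006-145114305, plus strand) and Fmnl1 (chr11:103170888-103171187, plus strand). Fmnl1 is included as a member that holds the longer motif and was not called.
Coro1a start 1: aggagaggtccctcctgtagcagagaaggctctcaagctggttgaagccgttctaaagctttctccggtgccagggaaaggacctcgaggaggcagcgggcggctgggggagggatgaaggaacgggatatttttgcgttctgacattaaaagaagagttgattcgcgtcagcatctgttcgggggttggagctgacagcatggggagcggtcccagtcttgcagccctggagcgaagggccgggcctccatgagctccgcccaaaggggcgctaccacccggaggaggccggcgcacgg
Coro1a start 2: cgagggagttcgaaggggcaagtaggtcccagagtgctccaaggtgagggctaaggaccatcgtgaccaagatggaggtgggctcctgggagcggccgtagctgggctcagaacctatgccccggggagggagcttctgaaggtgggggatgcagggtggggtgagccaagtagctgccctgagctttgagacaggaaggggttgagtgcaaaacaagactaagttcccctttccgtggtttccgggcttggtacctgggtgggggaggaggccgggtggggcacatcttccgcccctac
Hcls1: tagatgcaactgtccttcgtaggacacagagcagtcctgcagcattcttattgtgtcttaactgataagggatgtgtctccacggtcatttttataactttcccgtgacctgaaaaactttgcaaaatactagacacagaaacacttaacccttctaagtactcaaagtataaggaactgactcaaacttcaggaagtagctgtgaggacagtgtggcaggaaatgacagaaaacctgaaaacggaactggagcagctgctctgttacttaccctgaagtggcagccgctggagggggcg
Was: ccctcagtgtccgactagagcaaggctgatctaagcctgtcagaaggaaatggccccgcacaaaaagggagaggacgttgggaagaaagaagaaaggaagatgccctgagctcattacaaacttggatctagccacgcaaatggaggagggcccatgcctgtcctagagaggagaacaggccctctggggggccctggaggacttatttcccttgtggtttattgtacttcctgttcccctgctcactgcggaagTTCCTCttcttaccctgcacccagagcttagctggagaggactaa
Arpc1b: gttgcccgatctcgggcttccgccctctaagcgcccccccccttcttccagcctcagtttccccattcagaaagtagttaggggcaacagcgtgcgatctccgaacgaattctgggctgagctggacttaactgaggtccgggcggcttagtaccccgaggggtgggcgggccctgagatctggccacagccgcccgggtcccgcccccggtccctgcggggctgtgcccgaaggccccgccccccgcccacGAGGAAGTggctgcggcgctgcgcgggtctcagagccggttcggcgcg
Fmnl1: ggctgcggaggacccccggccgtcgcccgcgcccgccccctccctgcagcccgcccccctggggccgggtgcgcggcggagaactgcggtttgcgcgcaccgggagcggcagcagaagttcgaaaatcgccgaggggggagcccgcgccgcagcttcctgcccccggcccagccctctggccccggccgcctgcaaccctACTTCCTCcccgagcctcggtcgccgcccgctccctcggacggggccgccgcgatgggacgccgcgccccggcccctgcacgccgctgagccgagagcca

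GAGGAA, searched on both strands, occurred in the promoters of Was, Wipf1, Arpc1b and Fmnl1, which is 4 of 8 members against 31.3% of the 27025 genes with a promoter in the table. In Was it began 5 bases after the start, on the strand opposite to the gene, in Wipf1 the matches lay in the third of its 3 starts, not printed, and in Arpc1b it began 2 bases after the start on the strand of the gene. The longer GAGGAAGT, which contains GAGGAA, occurred in Arpc1b and Fmnl1, 2 of 8 members against 3.7% of genes. Neither Coro1a nor Hcls1 held these exact letters in the window. Other forms of a PU.1 site were not searched, so this does not show that a promoter lacks one. AGGAAGT, the end of the longer motif, is in the printed Hcls1 sequence, and its reverse complement ACTTCCT in that of Was, both unmarked. The share of all genes with AGGAAGT was not computed. CCGGAA, a core of other ETS factors, occurred in 1 of 8 members, start 2 of Coro1a, against 16.7% of genes, and the GC box GGGCGG in 5 of 8 against 38.2%. A match is a description of the letters, and binding was not measured.

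The second question was what happened to these levels when Dox was removed. In washed against Dox cells, Coro1a, Hcls1, Was, Arpc1b, Lsp1 and Vasp were lower and Cttn was higher past the threshold, 6 lower and 1 higher of 10, where 6.02% of tested genes were called lower and 3.64% higher (9.66% in all). A fit with clone as a block also gave 6 lower and 1 higher (12.4% and 10.4% of all genes, 22.9% in all). The same Dox libraries enter this and the first comparison, so the count is again a description. In 6 members every washed library lay below every Dox one and in 1 above, against 14.5% and 11.8% of all genes, and 8 were lower and 1 higher within all 3 clones, against 27.5% and 28.1%. The number of members called was 4 without clone 1, 2 without clone 2, 0 without clone 4 and 4 without the untreated library of clone 1, which enters the estimate of spread. Calls over all genes fell from 1160 of 12004 to 1069 of 12143, 70 of 12076, 4 of 12069 and 717 of 12309, in the same order. The calls of Was and Vasp were lost with size factors of DESeq2, with library size alone and without a filter on low counts, that of Arpc1b with library size alone and without a filter, and that of Vasp also with a filter of 5 CPM in 3 libraries. Coro1a stood at 219.9, 172 and 116 CPM in washed clones 1, 2 and 4, against 798 ± 30.5 CPM in Dox (SD, n = 3). Cttn stood at 73.8, 79.4 and 71.2 CPM in washed cells, against 6.81 ± 3.57 CPM in Dox. Hcls1 stood at 86.4, 71.2 and 74.6 CPM in washed cells, against 185 ± 4.51 CPM in Dox. Lsp1 stood at 0.552, 0.735 and 0.612 CPM in washed cells, on 6, 6 and 5 reads, against 22.1 ± 8.88 CPM in Dox. For each of these 4 genes every washed library lay on the untreated side of every Dox library. Among the members that changed less, Was stood at 83.0, 67.5 and 63.6 CPM in washed cells, against 110.0 ± 14.3 CPM in Dox.

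Arpc1b stood at 469.95, 544 and 483 CPM in washed cells, against 799 ± 44.5 CPM in Dox, and Vasp at 157, 238 and 154 CPM in washed cells, against 328 ± 41.6 CPM in Dox. Was, Arpc1b and Vasp each had all washed libraries below all Dox libraries. Wipf1 stood at 75.7, 159 and 126 CPM in washed cells, against 130.04 ± 11.4 CPM in Dox. Fmnl1 stood at 62.6, 124.5 and 139 CPM in washed cells, against 155 ± 54.0 CPM in Dox. Lcp1 stood at 489, 887 and 813 CPM in washed cells, against 976 ± 171 CPM in Dox. These 3 genes overlapped between the conditions and were not called. Of the marker lists in washed cells, neutrophil genes summed to 45.5 to 75.3 CPM, megakaryocyte and platelet genes to 114 to 170.2 CPM, eosinophil genes to 8348 to 10941 CPM and mast cell and basophil genes to 1038 to 3775 CPM. Monocyte genes summed to 1813 to 2254 CPM there, erythroid genes to 187 to 756 CPM, lymphoid genes to 11.7 to 215 CPM and the stromal and epithelial list to 896 to 983 CPM, and their part in the washed levels was not tested.

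The third question was whether the washed clones stood where the untreated clones did. In washed against untreated cells 0 of the 10 members passed edgeR's quasi-likelihood test, and 0 did at an unadjusted p under 0.05, also with DESeq2 and with limma voom. Over all 12004 genes the test called 0.00%, with 38 at an unadjusted p under 0.05, and 0 were called by DESeq2 and by voom, with 41 and 25 unadjusted. These unadjusted counts are far below the share of 0.05 expected when nothing differs. The fits had 1 mean per condition and kept clone differences in their spread, so 0 unadjusted calls do not speak for equal levels. With the clone as a block 0 members and 0.00% of all genes passed. No member had washed libraries all above or all below the untreated ones (1.31% and 1.05% of all genes), and 0 were higher and 1, Wipf1, lower within all 3 clones (9.21% and 8.90%). The untreated libraries are shared with the first comparison, on which the members were chosen. From the fit without the clone, the 95% interval of the washed over untreated fold was 0.851 to 1.32 for Hcls1 and 0.740 to 1.23 for Arpc1b. It was 0.852 to 1.75 for Coro1a and 0.668 to 1.72 for Cttn. On the log2 scale it was widest for Lsp1, whose fold interval was 0.200 to 1.42. These intervals leave room for differences of the size printed, so the test does not show that the levels were equal.

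**Figure D3:**
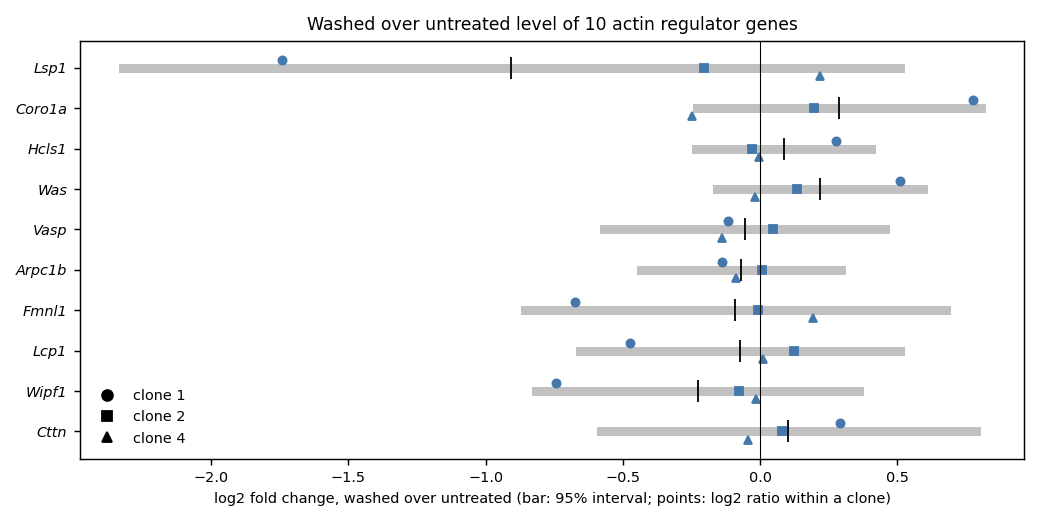
Log2 fold change of washed over untreated for the 10 genes (y axis), with the fitted value (tick), its 95% interval (grey bar) and the log2 ratio within each clone (points). Every interval includes 0, and the clone 1 point is the farthest from 0 for every gene but Vasp.

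For every member but Vasp, clone 1 differed most between its washed and untreated libraries. Its washed over untreated ratio was 1.71 for Coro1a, against 1.15 and 0.842 in clones 2 and 4. For Was the ratio was 1.42 in clone 1, against 1.10 and 0.987 in the other two. For Wipf1 it was 0.597 in clone 1, against 0.948 and 0.989, and for Fmnl1 0.626 against 0.994 and 1.14. Lcp1 gave 0.719 in clone 1, against 1.09 and 1.01. The untreated library of clone 1 is the one with the large share of counts on a single entry. Its washed library also stood apart from the other washed clones for some members. Wipf1 had 75.7 CPM in washed clone 1, against 159 and 126 CPM in washed clones 2 and 4. Fmnl1 had 62.6 CPM there, against 124.5 and 139 CPM, and Lcp1 489 CPM, against 887 and 813 CPM. Cttn, at 73.8 CPM against 79.4 and 71.2 CPM, did not stand apart. The part of either clone 1 library in these ratios was not tested.

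Differences between clones were asked next, in a model with condition and clone. By edgeR's test over both clone coefficients 0 of the 10 members passed (0.00% of all genes), although 4 members, Wipf1, Fmnl1, Lcp1 and Vasp, and 4501 of all genes had an unadjusted p under 0.05. DESeq2's likelihood ratio test called 3 members, Fmnl1, Lcp1 and Vasp, where it called 22.9% of all genes, and limma voom called Fmnl1, where it called 8.44%. Between single pairs of clones edgeR called 1 member, Fmnl1, lower in clone 1 than in clone 2 (log2 fold change -0.77, adjusted p = 0.0368), where it called 18.5% of all genes, and 0 members between the other pairs; these contrasts had been planned for members that passed the joint test. Fmnl1 was lowest in clone 1 in every condition, at 62.6 CPM washed, 92.6 CPM in Dox and 99.98 CPM untreated, while clones 2 and 4 lay between 121 and 189 CPM. Vasp was highest in clone 2 in every condition, at 238 CPM washed, 375 CPM in Dox and 230.5 CPM untreated.

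The response to Dox was compared between clones with the washed and untreated libraries of a clone pooled as 1 state. By edgeR 0 of 10 members and 0.00% of all genes differed in their response, with 1 member, Cttn, and 407 of all genes at an unadjusted p under 0.05; DESeq2 called 0 members and 0.0543% of genes, and voom 0 members and 0.00%. Cttn was lowest in Dox clone 1 and highest in Dox clone 2. Without the untreated library of clone 1, 4 members passed (Coro1a, Cttn, Was and Wipf1) along with 4171 of 12309 genes; clone 1 then has 1 library off Dox, which is assumed to vary like those of the other clones.

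Per kilobase of gene length the order of the 10 genes differed between conditions. In Dox the mean levels in CPM per kilobase were 515 ± 28.7 for Arpc1b and 499.7 ± 19.1 for Coro1a (SD, n = 3), which did not differ beyond their spread. Lcp1 followed at 225 ± 39.4, Vasp at 146 ± 18.5, Hcls1 at 91.5 ± 2.23 and Was at 52.5 ± 6.82. Fmnl1 at 40.0 ± 13.9 overlapped both Was and Wipf1, the latter at 29.6 ± 2.60, and Lsp1 at 11.5 ± 4.61 and Cttn at 2.11 ± 1.11 came last. In untreated cells Arpc1b led at 338 ± 10.005 CPM per kilobase, then Lcp1 at 177 ± 17.4. Coro1a at 86.7 ± 6.75 and Vasp at 84.3 ± 15.6 did not differ beyond their spread there. Hcls1 at 36.2 ± 0.877 and Wipf1 at 32.0 ± 5.41 overlapped, as did Wipf1, Fmnl1 at 29.8 ± 3.52 and Was at 29.3 ± 1.47. Cttn at 21.6 ± 2.52 and Lsp1 at 0.651 ± 0.519 came last.

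Set beside their paralogs, the members differed in how much of a family they made up. Coro1a gave 67.4% to 70.5% of the summed level per kilobase of Coro1a, Coro1b, Coro1c and Coro7 in Dox and 29.6% to 32.7% in untreated cells; in washed clone 1 it gave 46.3%, and 30.2% and 28.9% in washed clones 2 and 4. The other coronins were not called: Coro1b stood at 258 ± 40.0 CPM in Dox and 229.8 ± 50.3 CPM in untreated cells, Coro1c at 152 ± 22.7 CPM in Dox and 110.1 ± 11.1 CPM in untreated cells, and Coro7 at 153 ± 21.5 CPM in Dox and 131 ± 8.94 CPM in untreated cells. With the clone as a block Coro1c passed (edgeR adjusted p = 0.0386). Was gave 89.7% to 91.3% of Was and Wasl in Dox and 82.8% to 84.7% in untreated cells, with Wasl, the widely expressed relative, at 26.1 ± 2.61 CPM in Dox and 27.4 ± 2.70 CPM in untreated cells. Arpc1b gave 81.2% to 83.0% of the ARPC1 pair in Dox and 74.7% to 78.8% in untreated cells, and its paralog Arpc1a stood at 176 ± 14.5 CPM in Dox and 159 ± 25.3 CPM in untreated cells.

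Among the other families, Lcp1 gave 98.6% to 99.1% of the plastins in Dox and 98.5% to 99.3% in untreated cells, with Pls3 at 8.44 ± 0.495 CPM in Dox and 6.76 ± 2.41 CPM in untreated cells. Fmnl1 gave 30.9% of its family in Dox clone 1 and 55.4% and 48.9% in Dox clones 2 and 4, against 45.6% to 50.8% in untreated cells. Its paralog Fmnl3 was called higher (125 ± 24.9 CPM in Dox, 48.2 ± 4.33 CPM in untreated cells, edgeR adjusted p = 0.0109), and Fmnl2 was not (112 ± 9.16 CPM in Dox and 121 ± 3.23 CPM in untreated cells). Wipf1 gave 79.4% to 82.6% of its family in Dox and 85.5% to 88.5% in untreated cells. Its paralog Wipf2 stood at 51.2 ± 6.46 CPM in Dox and 36.7 ± 1.42 CPM in untreated cells, with an edgeR adjusted p of 0.0915, and 0.0332 when clone was a block. Vasp gave 74.3% to 92.1% of the Ena/VASP family in Dox and 78.9% to 83.2% in untreated cells, and Enah ranged from 45.3 to 233 CPM among the Dox libraries. Evl stood at 6.16 ± 2.36 CPM in Dox and 1.78 ± 0.518 CPM in untreated cells (edgeR adjusted p = 0.0769, and 0.0246 with the clone as a block).

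**Figure D4:**
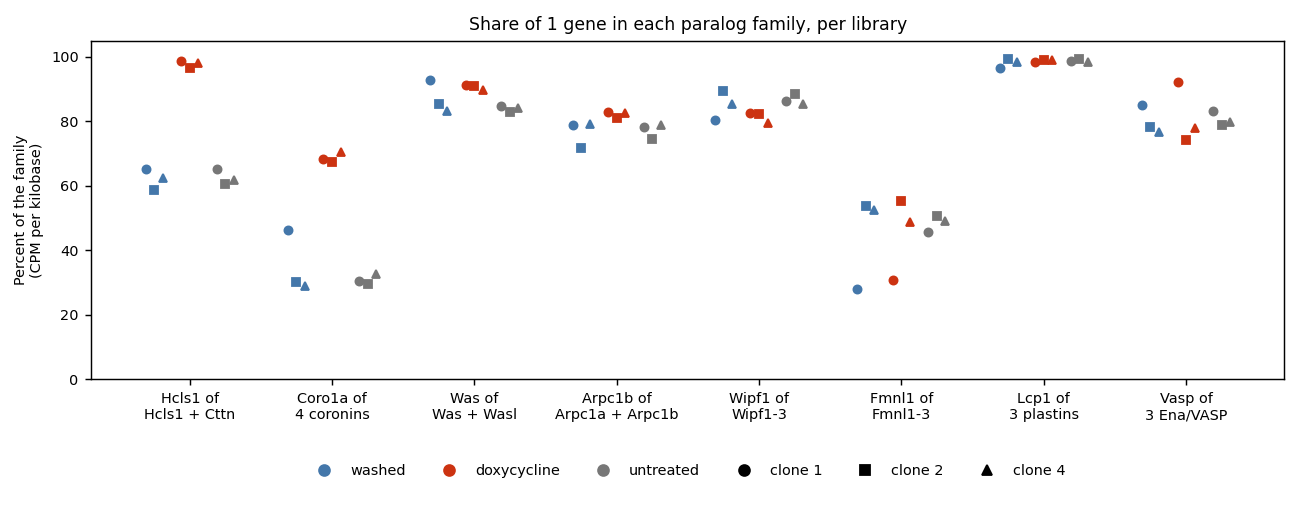
Share in percent (y axis) that 1 gene made up of the summed level per kilobase of its paralog family (x axis) in each washed, Dox and untreated library (colours); each point is 1 clone. Hcls1 reaches 96.4% to 98.8% and Coro1a 67.4% to 70.5% in Dox, while the plastin share of Lcp1 lies between 96.7% and 99.3% in all libraries.

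Of 139 other actin genes in 9 lists by role, 124 were tested between Dox and untreated cells, and 19 rose and 2 fell (6.57% and 4.35% of all tested genes). The 2 that fell, Nckap1 and Pfn2, passed the filter on low counts only through libraries off Dox, so their calls only describe these libraries. With the clone as a block 49 rose and 7 fell (13.0% and 11.7% of all genes). The median log2 fold change was 0.42, against 0.00 over all tested genes. The 21 calls fell to 2 without clone 2, 0 without clone 4 and 6 without the untreated library of clone 1. Over all genes 1311 calls fell to 159, 0 and 347 in the same order. Actb, the main cytoplasmic actin, stood at 2850.0 ± 490.3 CPM in Dox and 2329.9 ± 362 CPM in untreated cells (edgeR adjusted p = 0.546). Actg1, whose reads may be shared with its many pseudogenes, stood at 33.4 ± 8.76 CPM in Dox and 39.7 ± 9.48 CPM in untreated cells (adjusted p = 0.740). Neither actin passed.

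Around the Arp2/3 complex, 1 of 9 tested subunit genes rose and 0 fell: Actr2, one of the actin-related proteins that start the branch, at 710 ± 39.1 CPM in Dox and 406 ± 28.5 CPM in untreated cells (edgeR adjusted p = 0.0152). With the clone as a block 5 rose and 1 fell. Over all tested genes 6.57% rose and 4.35% fell, and 13.0% and 11.7% with the block. Of 21 tested nucleation-promoting and adaptor genes 3 rose and 1 fell. Pstpip1, an adaptor that binds the Was protein, had 97.1 ± 16.9 CPM in Dox and 33.2 ± 4.86 CPM in untreated cells (adjusted p = 0.00307), and Washc2, of the endosomal WASH complex, had 154 ± 21.2 CPM in Dox and 93.6 ± 0.965 CPM in untreated cells (adjusted p = 0.0247). Nckap1, a subunit of the WAVE complex, was called lower: it was at 0, 0 and 0.388 CPM in Dox clones 1, 2 and 4, against 3.30, 2.39 and 4.69 CPM in untreated clones. It passed the filter on low counts only through the libraries off Dox, so its call only describes these libraries.

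Of 11 tested formin and Ena/VASP genes 2 rose and 0 fell (6 and 0 with the block), the formins Fmnl3 (above) and Inf2, with Inf2 at 28.3 ± 2.68 CPM in Dox and 10.1 ± 1.59 CPM in untreated cells (edgeR adjusted p = 0.00814). Of 5 tested coronins 0 passed (1 higher and 1 lower with the block). The shares over all tested genes were 6.57% higher and 4.35% lower (13.0% and 11.7% with the block). Of 12 tested bundling and crosslinking genes 2 rose and 0 fell (4 and 0 with the block): Marcksl1, a membrane-bound actin-binding protein, at 104 ± 23.7 CPM in Dox and 29.7 ± 3.49 CPM in untreated cells (adjusted p = 0.0018), and the crosslinker Actn4 at 374 ± 31.6 CPM in Dox and 236 ± 4.75 CPM in untreated cells (adjusted p = 0.0281).

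Of 20 tested genes for severing, capping and turnover 4 rose and 0 fell (7 and 0 with the block). The shares of all genes were 6.57% and 4.35% (13.0% and 11.7% with the block). Wdr1, a cofactor of cofilin in filament disassembly, had 507 ± 33.7 CPM in Dox and 221 ± 39.7 CPM in untreated cells (edgeR adjusted p = 0.00703). Twf2, a capping and monomer-binding protein, had 108 ± 10.1 CPM in Dox and 57.1 ± 3.40 CPM in untreated cells (adjusted p = 0.00811), and Limk1, a kinase that inactivates cofilin, 53.9 ± 4.31 CPM in Dox and 25.9 ± 2.71 CPM in untreated cells (adjusted p = 0.00924). Of 5 tested actin and monomer-binding genes 0 rose and 1 fell (0 and 2 with the block): Pfn2, a profilin, at 0.464 ± 0.404 CPM in Dox and 2.35 ± 0.534 CPM in untreated cells. Pfn2, too, passed the filter only through libraries off Dox, so its call only describes these libraries. Of the 2 lower calls, Nckap1 and Pfn2, 0 were left with a filter of 5 CPM in 3 libraries. Without a filter 1 lower call was made.

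Of 18 tested myosin and membrane linker genes 5 rose and 0 fell (13 and 0 with the block). Among all genes 6.57% rose and 4.35% fell (13.0% and 11.7% with the block). Myo1f, a myosin of blood cells, had 228 ± 60.6 CPM in Dox and 71.7 ± 12.1 CPM in untreated cells (edgeR adjusted p = 0.0120), Myh9, the non-muscle myosin heavy chain, 1898 ± 481 CPM in Dox and 894 ± 41.4 CPM in untreated cells (adjusted p = 0.0179), and Ezr, which ties filaments to the membrane, 411 ± 32.0 CPM in Dox and 253 ± 27.7 CPM in untreated cells (adjusted p = 0.0290). In washed against untreated cells 0 of the 124 tested genes passed with edgeR, DESeq2 or voom, and 0 had an unadjusted p under 0.05. These fits, too, kept clone differences in their spread.

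**Figure D5:**
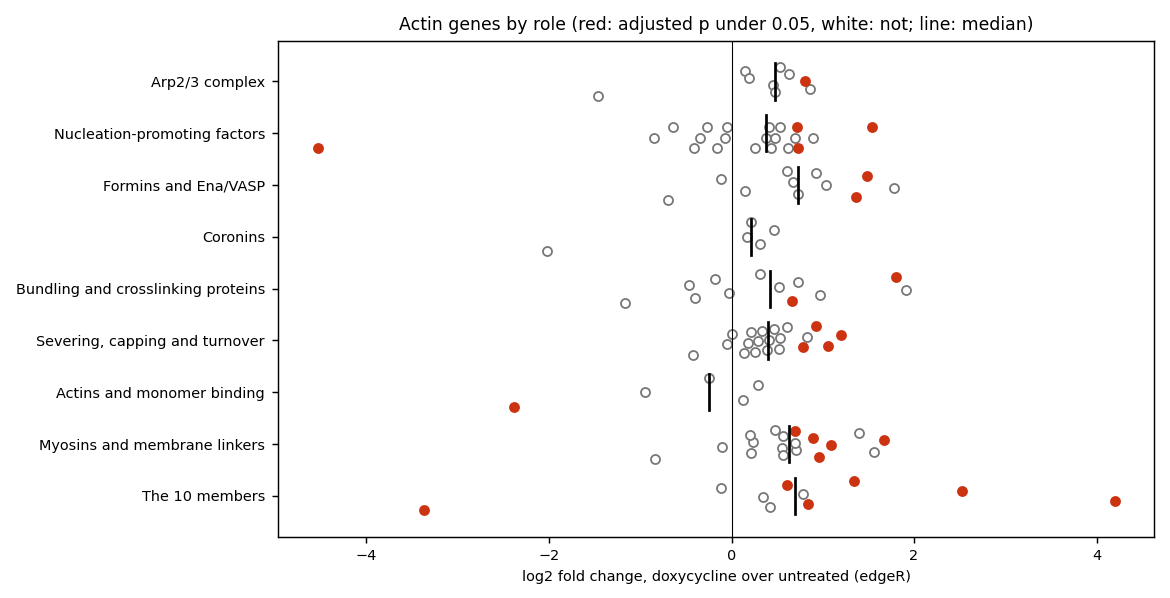
Log2 fold change of Dox over untreated (x axis, edgeR) for the tested genes of 8 of the actin lists and the 10 members (y axis); red points passed an adjusted p of 0.05, white ones did not, and the line is the median. List medians lie between 0.22 and 0.73 except for actins and monomer binding at -0.25.

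Over the 9 libraries the 5 genes whose log2 CPM followed Coro1a most closely, among the 9159 genes whose log2 CPM averaged 3 or more, were Arrb2 (Pearson's r 0.99), Cyld (0.99), Itgav (0.99), Grk6 (0.99) and Hcls1 (0.99). Arrb2, the gene for beta-arrestin 2, had 229, 208 and 200.1 CPM in Dox clones 1, 2 and 4, against 41.8, 49.0 and 40.0 CPM in untreated clones. For Cttn, 4 of the 5 closest were B3galnt2 (0.98), Nedd4 (0.98), Rasa1 (0.98) and Chchd10 (0.98). B3galnt2, the gene for a glycosyltransferase, had 14.7, 24.6 and 20.6 CPM in Dox clones 1, 2 and 4, against 42.0, 44.3 and 39.8 CPM in untreated clones, with clone 1 lowest in Dox as for Cttn. The libraries fall into Dox and non-Dox clusters, so these values describe the ranking and carry no test.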

How the data were processed

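RNA from the 9 sorted libraries was prepared for sequencing with Illumina library protocols per the labels. The authors deposited raw read counts per Entrez gene with a gene length in bases, per the file headers; the submitters' processing notes name mm10, featureCounts, CASAVA 1.8.2, limma 3.22.0 and edgeR 3.8.2. Aligner, annotation version and strandedness were not given in the sources used here, so reads of a gene and an overlapping antisense gene cannot be separated. Symbols and coordinates came from RefSeq on GRCm38.p6, the build also called mm10, and 25275 of 27179 entries matched. filterByExpr left 12004 genes. edgeR 4.0.16 in R 4.3.3 fitted quasi-likelihood models over all genes with TMM scaling and Benjamini-Hochberg adjustment at 0.05, with 1 mean per condition. SE is the log2 fold change over the square root of its F statistic. CPM per kilobase used the length column in the files. DESeq2 1.42.0 and limma 3.58.1 (voom) were alternatives, and the tests were run on simulated counts first. Since all clones derive from 1 line, p-values reflect only how those clones vary. Doxycycline, the GFP gate and the hairpin state change together and cannot be told apart.

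The clone number pairs the libraries, since 1 clone is 1 cell line: deviations from group means correlated at 0.29 to 0.68 in the 9 same-clone pairs of libraries and at -0.69 to 0.32 in the 18 others. The members and lists were chosen with earlier results of these data known. The genes named are the members, Spi1, both actins, measured paralogs, up to 3 called genes of smallest p per list and the 5 genes most like Coro1a and Cttn; 1 such gene and the values of 1 actin list are not reported here. Pdap1 and the other overlapping genes were added after the overlaps were seen. No 2 libraries agreed within sampling noise; chi-square per degree of freedom was lowest, 3.62, for washed and untreated clone 4. The fit without the largest entry of untreated clone 1 was added after the data were seen.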

Additional observations from a re-analysis of the deposited data

How the results depend on the processing

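Directions of the called members held under every alternative with a value per member, which leaves out the fit of 2 groups alone. In Dox against untreated cells 6 members passed, with 5 to 7 under other scaling, filters, tools and samples and 0 to 4 when a clone or the untreated library of clone 1 was left out. In washed against Dox cells 7 passed; 4 did with library size alone, 4 without a filter and 4 in the fit of the 2 groups alone, and 0 to 4 when a clone or that library was left out. Without clone 4 no gene in the series passed between Dox and untreated cells (edgeR), and 4 of 12069 passed between washed and Dox cells. All-gene calls between washed and Dox cells were 1160, with 648 for library size alone, 996 without a filter and 324 for the 2 groups alone. With the clone as a replicate block the members called were 7 in each of these comparisons and 0 between washed and untreated cells. The block's count for the other actin genes between Dox and untreated cells was 56, against 21 without it, and DESeq2 gave 40, the 2 groups alone 34 and removal of the largest entry of untreated clone 1 gave 22. When a clone or the untreated library of clone 1 was left out that count ran from 0 to 20. Between washed and Dox cells the other actin genes called were 4 higher and 36 lower with the block, against 1 and 19 without it. Of all tested genes 10.4% were higher and 12.4% lower with the block, against 3.64% and 6.02% without it.

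With library size alone the log2 fold change of all genes had a median of 0.23 in Dox against untreated and 0.22 in washed against untreated cells. The share of calls that were higher in Dox was then 75.6%, against 60.2% with TMM. With it 4 washed over untreated values turned sign without passing, though all lie below that median: Arpc1b to 0.12, Fmnl1 to 0.055, Lcp1 to 0.083 and Vasp to 0.12. With each clone left out in turn, Hcls1 ran from -0.0175 to 0.138, Fmnl1 from -0.267 to 0.0934 and Lcp1 from -0.194 to 0.0675, also without passing; each turned sign without clone 1. Between clones 0 members passed edgeR's joint test; 1 did without a filter, 3 with DESeq2 and 1 with voom, and 0 to 1 with a clone or the untreated library of clone 1 left out. For the response of clones the range with these left out was 0 to 4. The cause of these changes was not tested. Depth limits Lsp1, with 4 to 13 reads per library off Dox.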
